A study of Mus musculus with 11 samples.

Results

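The regions described here are binding sites of HNF4A in the villus epithelium of the mouse jejunum at which neither CDX2 nor the histone mark H3K4me2 was called. They were chosen from wild-type (WT) lists alone. An HNF4A peak was taken when no peak of either WT CDX2 list overlapped it by 1 bp or more and when no nucleosome of the WT H3K4me2 list had its centre within 1 kb of the peak centre. Of 22376 WT HNF4A peaks, 4874 met the rule, or 21.8% (95% interval 21.2 to 22.3). They made up 26.1% (25.5 to 26.7) of the 18676 peaks without CDX2. They are called unmarked peaks below, and the other 13802 peaks without CDX2 are called marked peaks. A further 196 unmarked peaks overlapped CDX2 and were set apart.

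HNF4A is a nuclear receptor that binds DNA as a homodimer and is known in enterocytes for genes of lipid handling and of the mature absorptive cell. CDX2 is a homeodomain factor that gives the intestinal epithelium its identity. H3K4me2, the dimethylated form of lysine 4 on histone H3, lies on nucleosomes at promoters and enhancers. At an enhancer in use, marked nucleosomes typically flank the bound factor. A list of marked nucleosomes tells whether the mark was called near a factor, and not whether an enhancer is in use.

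Chromatin immunoprecipitation with sequencing (ChIP-seq) was available for HNF4A in Cdx2 knockout and in WT, with 1 library each. For CDX2 there were 1 library of Hnf4a knockout and 2 of WT. For H3K4me2 there was 1 library each of Cdx2 knockout, of Hnf4a knockout, of a double knockout titled Cdx2-Cdx1, of a double knockout titled Cdx2-Hnf4a and of WT. Every one of these mice was of a mixed 129xC57BL6 strain background, and each library was built from DNA pooled over several ChIP experiments. Villi had been separated from crypts by EDTA and filtering, and the input library was not analysed here. The labels of both double knockouts contradict themselves on the gene deleted beside Cdx2, so these libraries are called by their titles, and nothing is drawn from the second gene. No source used here gives the alleles, the means of deletion or the ages. With 1 library per condition there is no replicate check of any difference between genotypes, and no p-value was computed. All intervals are 95% intervals, exact (Clopper-Pearson) for shares and Newcombe's for differences of shares. The intervals cover counting error only and treat peaks as independent, although 33.7% of the unmarked peaks had another HNF4A peak within 10 kb.

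The depth of the libraries is unknown, and peak scores and list lengths move with it. The HNF4A lists held 9676 peaks in Cdx2 knockout and 22376 in WT. The H3K4me2 lists held 262148 nucleosomes in Cdx2 knockout, 485509 in Hnf4a knockout, 292966 in the Cdx2-Cdx1 library, 279224 in the Cdx2-Hnf4a library and 250986 in WT. The Hnf4a knockout list reached down to a score of 1.7, whereas the lowest score was 50.1 in WT and between 50.4 and 51.3 in the other lists. A nucleosome scoring under 50.1 can thus be listed in Hnf4a knockout and not in WT. The mark is therefore given from the deposited lists in full, and again from nucleosomes scoring at least 52.

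Unmarked peaks were low and narrow. The score, a value per peak given by the authors that is never under 50, had a median of 61.3 in unmarked peaks (quartiles 54.6 and 74.9) and of 88.4 in marked peaks (62.8 and 157). The median width was 222 bp in unmarked peaks and 328 bp in marked peaks. Of the unmarked peaks, 19.6% reached the median score of all WT HNF4A peaks, against 55.4% of the marked peaks, a difference of −35.8 points (−37.2 to −34.4). For width the corresponding shares were 14.5% and 57.9%, a difference of −43.5 points (−44.7 to −42.2). Neither score nor width entered the rule.

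Peaks without the mark became rarer with each step up in HNF4A score. All WT HNF4A peaks were divided by score into 5 classes of about equal size, or quintiles. In the lowest quintile (50 to 57.2), 44.4% (42.8 to 45.9) of the peaks without CDX2 were unmarked. The share was 38.8% in the second quintile, 22.8% in the third and 12.1% in the fourth. In the highest quintile (175 to 3100) it was 5.93% (5.14 to 6.81), or 189 peaks. A minority of unmarked peaks were thus strong: 591 scored 100 or more, 17 scored 500 or more and 3 scored 1000 or more. Widths differed within quintiles as well. Unmarked peaks of the highest quintile had a median width of 382 bp against 470 bp for marked peaks, and in the lowest quintile the medians were 216 and 234 bp.

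**Figure D1:**
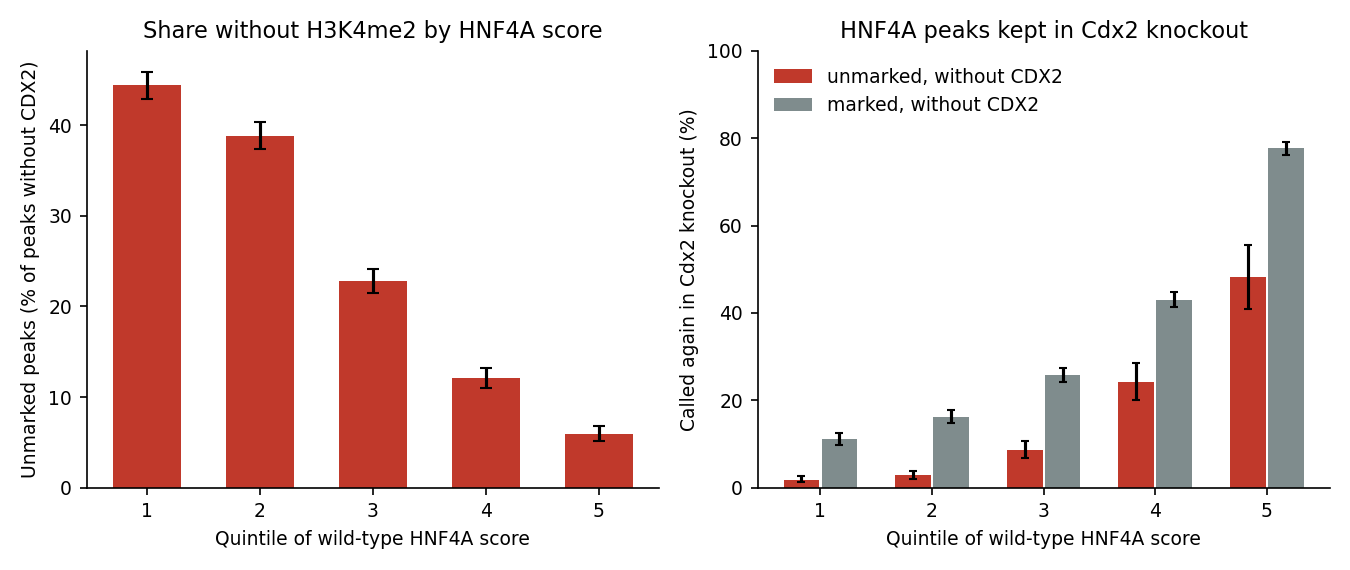
Left: share of WT HNF4A peaks without CDX2 that had no H3K4me2 nucleosome within 1 kb, by quintile of the WT HNF4A score (1 lowest, 5 highest). Right: share of unmarked (red) and marked (grey) peaks called again in Cdx2 knockout, with exact 95% intervals as error bars; the unmarked share was 44.4% in the lowest and 5.93% in the highest class, and unmarked peaks were kept less often than marked ones in each of the 5 classes.

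HNF4A was called again in Cdx2 knockout at few of these sites. A knockout peak overlapped 348 of the 4874 unmarked peaks, or 7.14% (6.43 to 7.90). Over all WT HNF4A peaks the share called again was 30.1%, and over the marked peaks it was 36.8% (36.0 to 37.6). The difference between unmarked and marked peaks was −29.7 points (−30.7 to −28.6). A peak not called again is described as lost here, which says that it is not on the knockout list and not that binding was absent.

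The gap was smaller between peaks of like score. When the marked peaks were weighted to the scores of the unmarked ones over 20 bins, their kept share was 20.2%, and the difference was −13.1 points (−14.1 to −12.1). Unmarked peaks were kept less often in each quintile of score. In the lowest quintile 1.87% (1.30 to 2.60) of the unmarked and 11.1% (9.82 to 12.4) of the marked peaks were kept. In the fourth quintile the shares were 24.1% (20.1 to 28.5) and 43.1% (41.3 to 44.8). In the highest quintile they were 48.1% (40.8 to 55.5) and 77.7% (76.2 to 79.2), a difference of −29.6 points (−36.8 to −22.3). The differences in the other quintiles ran between −9.21 points in the lowest and −19.0 points in the fourth, and no interval reached 0. The WT list was also cut to its 9676 highest-scoring peaks, the length of the whole knockout list, which dropped the weaker WT peaks. Of the unmarked peaks left on it, 30.1% (26.8 to 33.7) were kept, a difference of −27.7 points from the marked ones. Unmarked peaks that held CDX2 were kept at 11.2% (7.17 to 16.5), or 22 of 196. The difference between the unmarked peaks without and with CDX2 was −4.08 points (−9.32 to −0.314), but their median WT scores were 61.3 and 78.1. Its direction turned within classes of score. It was 1.33 points (−2.95 to 2.97) under a score of 100 and 3.70 points (−8.70 to 14.0) at 100 or more, and neither interval excluded 0.

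The 348 kept peaks had a median score of 84.4 in Cdx2 knockout and 107 in WT, and the median of their knockout to WT ratios was 0.790 (quartiles 0.519 and 1.21). For marked peaks the median ratio was 0.678. Because no listed peak scores under 50, a kept peak with a low WT score can hardly have a lower knockout score, and ratios are comparable only at like WT scores. In the highest quintile, the 91 kept unmarked peaks had a median knockout score of 108 and a median WT score of 300 (ratio 0.418), against 140 and 304 for marked peaks (ratio 0.453). In the lowest quintile the median ratio was 1.44 for unmarked and 1.42 for marked peaks, and in the third it was 0.977 and 0.926. The classes were set by WT score and scores of separate libraries move with depth, so these ratios are a description only. The knockout score exceeded the WT score at 129 of the 348 peaks, or 37.1% (32.0 to 42.4).

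**Figure D2:**
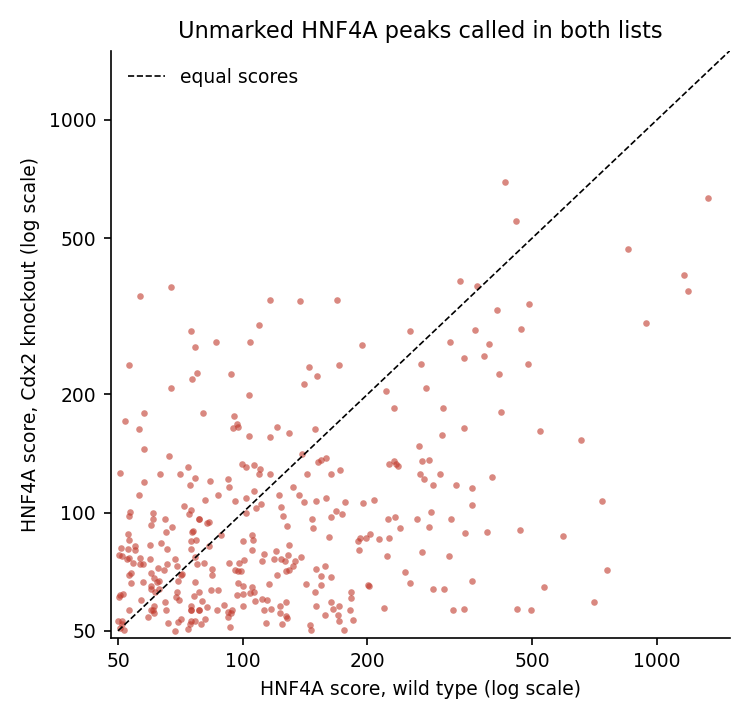
HNF4A score in Cdx2 knockout (vertical) against WT (horizontal), both on log scales, for the 348 unmarked peaks called in both lists; each point is a peak and the dashed line marks equal scores. The 5 peaks picked for the highest WT scores lie below the line, and 129 of the points lie above it.

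The strongest kept sites were each called with a lower score in the knockout. The highest-scoring one lay on chromosome 4 at 132291840 to 132292472 and scored 633 in Cdx2 knockout, against 1333 in WT. It had 3 nucleosomes in Hnf4a knockout, each scoring under 52, and 0 in the other knockouts. A site on chromosome 16 at 96041701 to 96042139 scored 367 in the knockout and 1191 in WT, with 2 weak nucleosomes in Hnf4a knockout alone. Both sites had their nearest WT nucleosome under 4 kb away, so both lay beside marked chromatin.

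Of the 5 highest-scoring kept sites, the one farthest from a WT nucleosome was on chromosome 8 at 48921107 to 48921957, which scored 403 in Cdx2 knockout and 1160 in WT. Its nearest WT nucleosome was 48330.5 bp away, its nearest other HNF4A peak 788 bp away, and it had 0 nucleosomes in all 5 lists. A site on chromosome 17 at 24125889 to 24126789 likewise had 0 in all 5, with scores of 305 in the knockout and 941 in WT. These were the only sites among the 5 without a nucleosome in any list. The last of the 5, on chromosome 15 at 102004032 to 102004420, scored 469 in the knockout and 851 in WT. It had 0 nucleosomes in Cdx2 knockout, 3 in Hnf4a knockout, 2 in the Cdx2-Cdx1 library and 1 in the Cdx2-Hnf4a library. At a score of 52 or more it had 0 in Hnf4a knockout, 1 in the Cdx2-Cdx1 library and 1 in the Cdx2-Hnf4a library.

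Lost sites reached high WT scores too. The highest, on chromosome 9 at 121966958 to 121967384, scored 753 in WT and was not on the knockout list. Next came chromosome 11 at 99465947 to 99466440, with a score of 663, and chromosome 14 at 37955057 to 37955391, with 646. Scores of 522 were reached on chromosome 5 at 135411395 to 135411909 as well as on chromosome 2 at 72594441 to 72594812. None of these 5 had a nucleosome within 1 kb in Cdx2 knockout or in either double knockout. All 5 had between 2 and 4 in Hnf4a knockout, of which the sites on chromosomes 5 and 2 had 1 each at a score of 52 or more. Such counts were common at this HNF4A score. Of all unmarked peaks in the highest quintile, 83.6% had a nucleosome in Hnf4a knockout with the list as deposited. The share was 18.5% in Cdx2 knockout, 23.8% in the Cdx2-Cdx1 library and 13.2% in the Cdx2-Hnf4a library. Over all WT HNF4A peaks these shares were 86.9%, 72.3%, 74.0% and 64.3%, with Hnf4a knockout first and the others in the same order.

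In the knockouts, most of these sites stayed without a listed nucleosome. Since they were chosen for having none in WT, a knockout could only be equal or higher, and no gain is tested here. With the lists as deposited, 512 sites, or 10.5% (9.66 to 11.4), had a nucleosome within 1 kb in Cdx2 knockout. The number was 762, or 15.6% (14.6 to 16.7), in the Cdx2-Cdx1 library and 528, or 10.8% (9.97 to 11.7), in the Cdx2-Hnf4a library. Over all WT HNF4A peaks the corresponding shares were 72.3%, 74.0% and 64.3%. In Hnf4a knockout, 2030 of the unmarked peaks, or 41.6% (40.3 to 43.0), had one, against 86.9% of all WT HNF4A peaks. At a score of 52 or more the number in Hnf4a knockout was 652, or 13.4% (12.4 to 14.4), so most of the sites marked there had only nucleosomes scoring under 52.

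Under the same lower limit of 52, the share was 9.93% (9.10 to 10.8) in Cdx2 knockout. The Cdx2-Cdx1 library had 14.5% (13.5 to 15.5) and the Cdx2-Hnf4a library 10.5% (9.62 to 11.4). Over all WT HNF4A peaks the shares were 71.8% in Cdx2 knockout, 77.4% in Hnf4a knockout, 73.1% in the Cdx2-Cdx1 library and 63.9% in the Cdx2-Hnf4a library. The order of the libraries depended on the length of the lists: with the same number of nucleosomes in each, Hnf4a knockout had the highest share at 13.6%, followed by the Cdx2-Cdx1 library at 10.3%. No knockout nucleosome was listed at 2689 unmarked peaks with the lists as deposited, or 55.2% (53.8 to 56.6), and at 3636, or 74.6% (73.4 to 75.8), at a score of 52 or more.

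Among peaks without CDX2 that were marked in WT, the opposite share was also computed. These peaks were chosen for having a WT nucleosome, so a knockout could only be equal or lower, and no loss is tested here. Their WT mark came from the full WT list, which reaches down to a score of 50.1. At a score of 52 or more in the knockout lists, 1330 of the 13802 marked peaks, or 9.64%, had no nucleosome in Cdx2 knockout, and 642, or 4.65%, had none in Hnf4a knockout. The share was 9.89% in the Cdx2-Cdx1 library and 20.2% in the Cdx2-Hnf4a library.

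**Figure D3:**
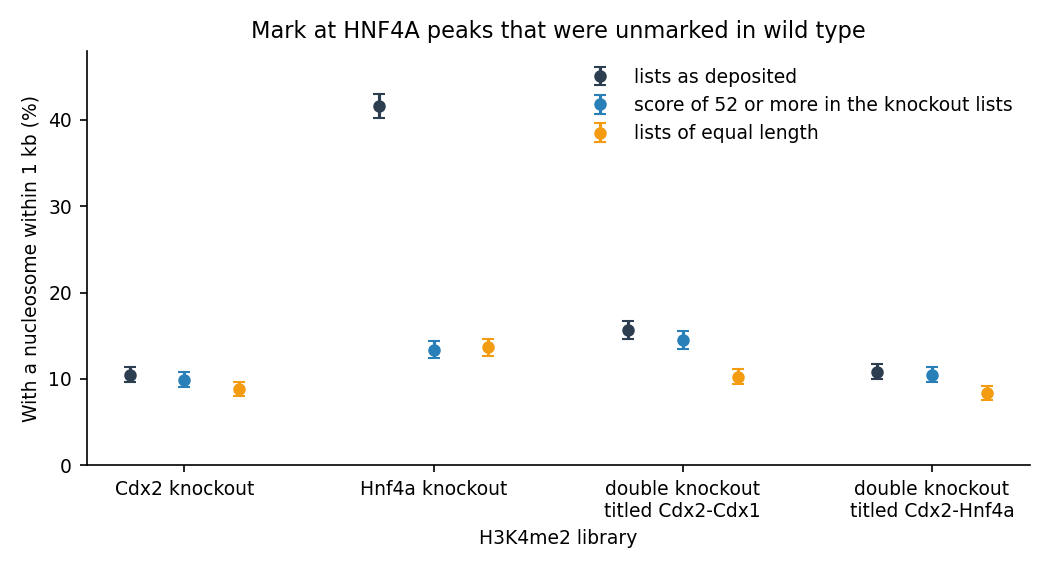
Share of the 4874 unmarked HNF4A peaks with a nucleosome within 1 kb in each of the 4 knockout H3K4me2 libraries, with the lists as deposited (dark), at a score of 52 or more in the knockout lists (blue) and with lists of equal length (orange); error bars are exact 95% intervals. Hnf4a knockout stood at 41.6% as deposited and at 13.4% at a score of 52 or more, and no other value exceeded 15.6%.

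Where a knockout did list nucleosomes, their scores were low. At a score of 52 or more, 356 of the 484 marked sites in Cdx2 knockout had a single nucleosome and 39 had 3 or more. With the full Hnf4a knockout list, 577 of 2030 marked sites had a single nucleosome and 965 had 3 or more, with a median nucleosome score of 20.9. Among nucleosomes of 52 or more, the median score near the unmarked peaks was 80.1 in Cdx2 knockout, 76.2 in Hnf4a knockout, 83.1 in the Cdx2-Cdx1 library and 95.4 in the Cdx2-Hnf4a library. Near marked peaks the medians were 277, 234, 229 and 282 in the same lists. These scores are 10 times the −log10 of a p-value, per the file headers.

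Some single sites were nevertheless marked by several nucleosomes in the knockouts. On chromosome 12 at 25528291 to 25528890, a lost site with a WT HNF4A score of 152, there were 4 nucleosomes in Cdx2 knockout, 5 in Hnf4a knockout, 4 in the Cdx2-Cdx1 library and 7 in the Cdx2-Hnf4a library. All 20 scored 52 or more. The nearest WT nucleosome was 11479 bp away, so the WT list was empty over a wide stretch here. A lost site on chromosome 10 at 68613732 to 68614113 (WT score 103) had 4, 4, 6 and 6 in the same order, with 2 of the 4 in Hnf4a knockout at 52 or more, and its nearest WT nucleosome lay 9809 bp away. A kept site on chromosome 18 at 74534019 to 74534443, with HNF4A scores of 91.3 in Cdx2 knockout and 240 in WT, had 4, 3, 4 and 5. Of its 3 in Hnf4a knockout, 2 scored 52 or more.

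The largest number in Cdx2 knockout was 5, at a kept site on chromosome 5 at 124147198 to 124147484 with HNF4A scores of 80.9 in Cdx2 knockout and 75.1 in WT. That site had 3 nucleosomes in Hnf4a knockout, 3 in the Cdx2-Cdx1 library and 1 in the Cdx2-Hnf4a library. A kept site on chromosome 16 at 55519887 to 55520130 had 4 in Cdx2 knockout, 4 in Hnf4a knockout, 4 in the Cdx2-Cdx1 library and 3 in the Cdx2-Hnf4a library, but its nearest WT nucleosome was only 1198 bp away. Likewise near marked WT chromatin were lost sites on chromosome 12 at 70992050 to 70992259 (1, 7, 5 and 6 in the same order, nearest WT nucleosome at 1082 bp) and on chromosome 1 at 88232933 to 88233181 (4, 5, 4 and 4, nearest at 2020.5 bp). In Hnf4a knockout, only 1 of the 4 nucleosomes at the chromosome 16 site scored 52 or more. At the chromosome 12 site 4 of the 7 did, and at the chromosome 1 site 3 of the 5.

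Nucleosomes in the knockouts were more frequent at kept than at lost unmarked peaks. Among the unmarked peaks of the fourth and highest quintiles of HNF4A score, 26.3% (20.2 to 33.1) of the 194 kept peaks had a nucleosome of 52 or more in Cdx2 knockout, against 14.0% (10.8 to 17.7) of the 422 lost peaks. The difference was 12.3 points (5.56 to 19.6). It was 17.2 points (9.80 to 24.9) in the Cdx2-Cdx1 library and 9.08 points (3.29 to 15.6) in the Cdx2-Hnf4a library. In Hnf4a knockout it was 6.62 points (−1.17 to 14.7), an interval that includes 0. Kept peaks also scored higher within this class, with WT medians of 169 and 127, and the part of score in these differences was not tested. In the lower 3 quintiles, where WT score medians were 69.7 for kept and 59.0 for lost peaks, the 4 differences lay between 16.3 and 29.3 points and their intervals were above 0.

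In Hnf4a knockout the share with a mark was higher at unmarked peaks of higher HNF4A score. With the list as deposited, it was 32.2% (30.0 to 34.4) in the lowest quintile of WT HNF4A score, 34.2% in the second, 49.9% in the third, 74.2% in the fourth and 83.6% (77.5 to 88.6) in the highest. Over all WT HNF4A peaks of any score it was 86.9% in the same list, and shares by quintile were computed for unmarked peaks only. At a score of 52 or more the share of unmarked peaks was 8.40% in the lowest and 33.3% (26.7 to 40.5) in the highest quintile, against 77.4% of all WT HNF4A peaks. In Cdx2 knockout at that score the shares in these classes were 7.30% and 17.5% (12.3 to 23.6), and in the Cdx2-Hnf4a library 9.28% (7.98 to 10.7) and 12.2% (7.87 to 17.7), where the intervals overlap. The Cdx2-Cdx1 library had 11.9% (10.4 to 13.4) in the lowest and 22.8% (17.0 to 29.4) in the highest quintile.

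Unmarked peaks with CDX2 had a nucleosome of 52 or more in Hnf4a knockout at 36.2% (29.5 to 43.4), and the difference of the peaks without CDX2 from them was −22.8 points (−29.8 to −16.4). Within scores under 100 this difference was −19.8 points (−28.2 to −12.4), and within scores of 100 or more −16.2 points (−28.6 to −4.01). Over all scores it was −8.98 points (−15.5 to −3.50) in the Cdx2-Cdx1 library, −1.27 points (−6.59 to 2.62) in the Cdx2-Hnf4a library and −0.784 points (−5.96 to 2.92) in Cdx2 knockout. Whether the lists differ in this was not tested.

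The weak nucleosomes of Hnf4a knockout were gathered at the peak centres. Those with a score under 52 numbered 0.786 per kb per unmarked peak within 100 bp of the centre and 0.315 between 900 and 1000 bp. At the strong unmarked peaks of the highest quintile the values were 1.96 and 0.450, and in the lowest quintile 0.565 and 0.274. At marked peaks the weak class showed the opposite shape, with 0.620 within 100 bp and 0.792 at 900 to 1000 bp, while nucleosomes of 52 or more reached 3.34 per kb per peak at 100 to 200 bp. The WT list holds nothing under 50.1, so whether such weak nucleosomes also occur in WT at these sites cannot be told from it. For the strong peaks in particular, the term unmarked thus means no nucleosome above the threshold of the WT list.

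**Figure D4:**
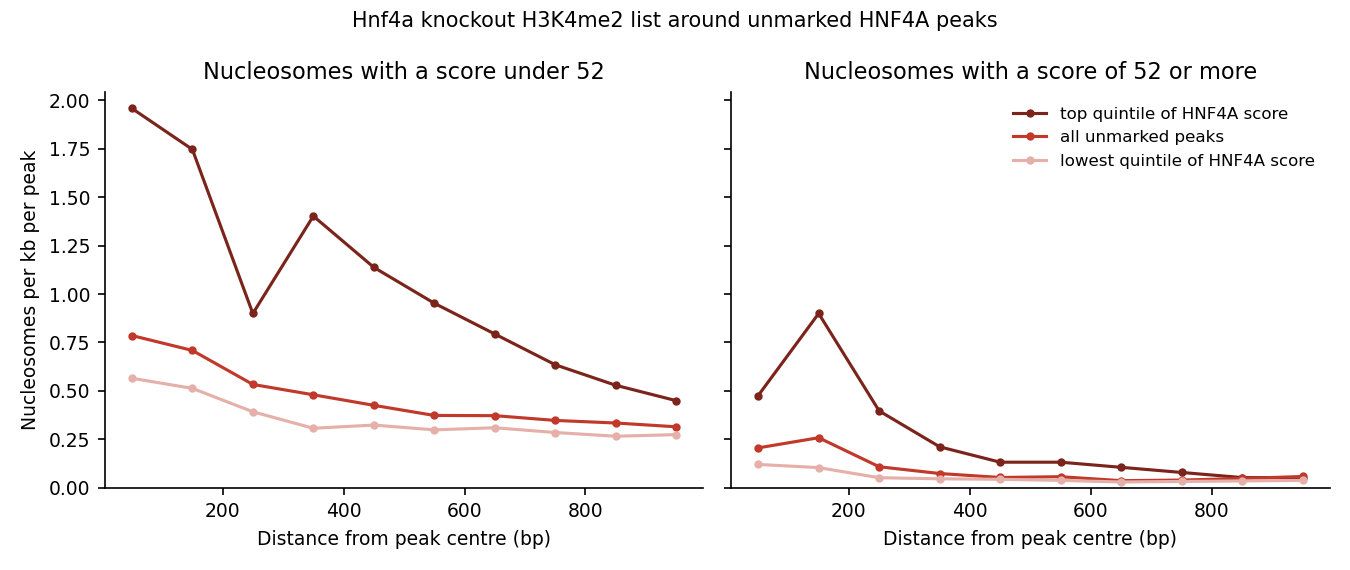
Nucleosomes of the Hnf4a knockout H3K4me2 list per kb per peak in bins of 100 bp from the centre of unmarked HNF4A peaks, for scores under 52 (left) and of 52 or more (right); lines are the 189 peaks of the highest quintile of HNF4A score, all 4874 peaks and the 1822 peaks of the lowest quintile. Weak nucleosomes were densest within 100 bp of the centre, at 1.96, 0.786 and 0.565.

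At a score of 52 or more, too, density over the first kilobase was highest within 200 bp of the centre in each knockout. In Cdx2 knockout there were 0.157 nucleosomes per kb per peak within 100 bp of the centre, 0.174 at 100 to 200 bp and 0.0287 at 600 to 700 bp. The values were 0.206, 0.259 and 0.0369 in Hnf4a knockout, 0.269, 0.216 and 0.0533 in the Cdx2-Cdx1 library, and 0.184, 0.135 and 0.0492 in the Cdx2-Hnf4a library. Density was higher again at 900 to 1000 bp, at 0.0482 in Cdx2 knockout, 0.0585 in Hnf4a knockout, 0.0934 in the Cdx2-Cdx1 library and 0.0790 in the Cdx2-Hnf4a library. The rule left WT without nucleosomes up to 1 kb, so a rise towards that limit is not a finding. Of the nucleosomes within 1 kb, 48.5% lay within 200 bp of the centre in Cdx2 knockout, 49.3% in Hnf4a knockout, 42.5% in the Cdx2-Cdx1 library and 37.8% in the Cdx2-Hnf4a library. Most of the nucleosomes within 1 kb thus lay more than 200 bp from the centre, on either side, although density was highest nearer to it.

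Further out, the surroundings of the unmarked peaks were sparse in every list. At 1 to 2 kb from the centre there were 0.144 nucleosomes per kb per peak in Cdx2 knockout and 0.136 in WT, at a score of 52 or more. The density then climbed to 0.237 in Cdx2 knockout and 0.225 in WT at 9 to 10 kb. Around marked peaks it ran the other way, with 1.82 in Cdx2 knockout and 1.99 in WT within 1 kb, and 0.435 and 0.424 at 9 to 10 kb. At a score of 52 or more, the density at 9 to 10 kb was thus lower around unmarked than around marked peaks in all 5 lists. With the full Hnf4a knockout list it was 0.481 around unmarked peaks, against 0.230 with the full WT list. The rule fixes the first kilobase in WT at 0, so the slope nearest the centre is not a finding.

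**Figure D5:**
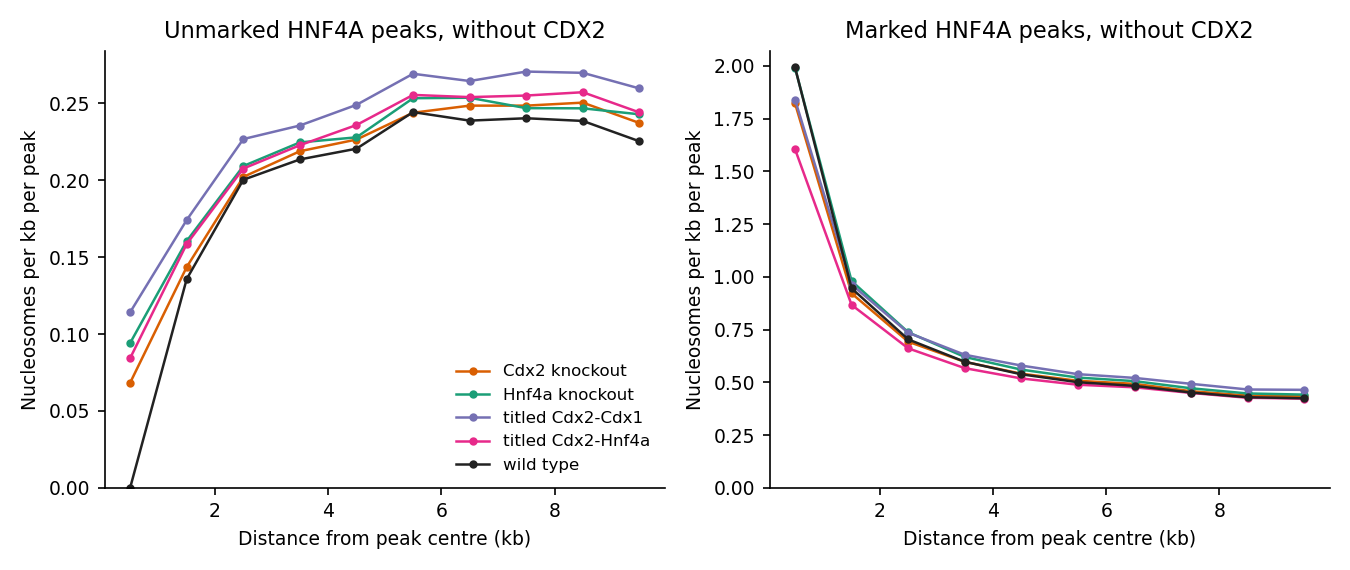
H3K4me2 nucleosomes with a score of 52 or more per kb per peak, by distance from the peak centre in bins of 1 kb, around unmarked (left) and marked (right) HNF4A peaks without CDX2 in the 4 knockout libraries and in WT; the vertical scales differ. Around unmarked peaks WT is at 0 in the first bin by the rule, and at 9 to 10 kb the 5 lists lie between 0.225 and 0.260; around marked peaks they lie between 0.423 and 0.465 there.

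The distance to the nearest WT nucleosome varied widely, with a median of 7512 bp. It was 1 to 2 kb at 712 unmarked peaks (14.6%) and over 50 kb at 589 (12.1%). Sites just inside the limit were on chromosome 8 at 107278497 to 107278715 (nearest nucleosome at 1000.5 bp, HNF4A score 107), chromosome 15 at 76382019 to 76382242 (1001 bp, 75.8) and chromosome 8 at 109909492 to 109909724 (1001.5 bp, 57.2). Just outside it were peaks on chromosome 13 at 81799856 to 81800074 (998.5 bp, 54.2), chromosome 11 at 5923976 to 5924253 (997 bp, 50.3) and chromosome 17 at 27949402 to 27949694 (996.5 bp, 86.0). All 6 were lost in Cdx2 knockout, and their scores lay between 50.3 and 107 on both sides of the limit.

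Sites over 50 kb from a WT nucleosome had the lowest median score and the lowest kept share. At 1 to 2 kb the median HNF4A score was 63.2 and 6.60% (4.89 to 8.68) of 712 sites were kept. With the nearest WT nucleosome at 2 to 5 kb, the median HNF4A score was 62.0 and 9.26% (7.65 to 11.1) of 1156 sites were kept. Over 50 kb the median was 58.6 and 2.72% (1.56 to 4.37) of 589 sites were kept. Among sites in the fourth and highest quintiles of score the kept share was 25.6% (18.1 to 34.4) of 121 at 1 to 2 kb, 36.7% (30.0 to 43.8) of 199 at 2 to 5 kb and 26.9% (11.6 to 47.8) of 26 over 50 kb. Among these higher-scoring sites the kept share thus showed no steady fall with distance. A nucleosome of 52 or more in Cdx2 knockout was found at 16.9% of sites 1 to 2 kb from a WT nucleosome, at 9.35% of those 5 to 20 kb away and at 1.36% of those beyond 50 kb. In Hnf4a knockout these shares were 29.1%, 10.6% and 1.36%. Among these distances the shares were thus highest at 1 to 2 kb from a WT nucleosome. Such sites adjoin the 1 kb limit of the rule, where a small shift of a called nucleosome brings it inside the window. How much of the higher share this makes up was not tested.

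Unmarked peaks also stood apart from other binding sites. Another HNF4A peak lay within 10 kb of 33.7% (32.4 to 35.0) of them and of 62.4% (61.6 to 63.3) of marked peaks, a difference of −28.8 points (−30.3 to −27.2). The gap was smaller, at −13.2 points (−17.0 to −9.24), when only HNF4A peaks scoring 100 or more entered, both as sites and as neighbours. The median distance to the next HNF4A peak was 22051 bp for unmarked peaks and 5457 bp for marked peaks. A WT CDX2 peak lay within 10 kb of 22.9% of unmarked and 37.6% of marked peaks, a difference of −14.7 points (−16.1 to −13.2). Of the unmarked peaks, 25.2% had within 10 kb an HNF4A peak with H3K4me2, counted here whether or not that peak overlapped CDX2. Another unmarked peak without CDX2 lay within 10 kb of 12.1%. Both of these shares were computed for unmarked peaks only. HNF4A peaks with H3K4me2 are also the more numerous kind of neighbour, so the shares are not comparable with each other. CDX2 of Hnf4a knockout was called on 25 unmarked peaks, or 0.513% (0.332 to 0.756), and on 80 marked peaks, or 0.580%, against 2.31% of all WT HNF4A peaks, which include those with CDX2 in WT. The difference between unmarked and marked peaks was −0.0667 points (−0.284 to 0.202).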

How the data were processed

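The authors deposited 1 list per library. In the CDX2 and HNF4A lists each peak has coordinates and a deposited score, whose meaning no source used here states. Peak names carry the word MACS, a peak caller. The H3K4me2 lists hold called nucleosomes and, per the file headers, a score of 10 times the −log10 of a p-value, deposited with a ceiling of 3250. Positions refer to mm9, as the submitters' processing notes give it, and count from 1. Gene annotation and genome sequence were not used here, because the tables at hand are of another build.

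Positions were compared with Python 3.11.15, pandas 2.3.3, numpy 2.4.6 and scipy 1.17.1. Peaks were shared at an overlap of 1 bp, and nucleosomes were counted by their centres. Score quintiles were set on all 22376 WT HNF4A peaks. The procedures were tested on simulated lists. Sites named are the 5 highest-scoring kept and lost ones, the 5 with most nucleosomes in Cdx2 knockout, the 5 with most over all knockouts at a score of 52 or more, and 3 on each side of the 1 kb limit. The members, lists and tests were chosen with earlier results of these data known. No label says whether the 2 WT CDX2 libraries came from separate animals.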

Additional observations from a re-analysis of the deposited data

How the results depend on the processing

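Depth is unknown, and it limits every comparison of lists. Each of the WT CDX2 libraries was left out of the rule in turn, with the other kept in. The number of unmarked peaks was then between 4914 and 5003, the kept share between 7.20% and 7.24% and the differences kept their direction. The number was 5419 with a window of 500 bp, 4162 with 2 kb, and 6428 when only WT nucleosomes of 100 or more counted as mark. It was 591 for HNF4A scores of 100 or more, where the kept share was 32.5%. The kept share was 10.5% with WT nucleosomes of 100 or more and 30.1% with HNF4A lists of equal length. All 15 alternatives for the kept difference between unmarked and marked peaks were negative with intervals below 0, between −33.9 and −9.21 points. Those for score, width and neighbours also stayed below 0.

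The marked share moved with most settings. In Cdx2 knockout it was 9.56% and 12.3% with windows of 500 bp and 2 kb, 19.5% for HNF4A scores of 100 or more, 8.90% at a nucleosome score of 100 or more in every list and 8.80% with lists of equal length. In the Cdx2-Cdx1 library these values were 14.4%, 17.7%, 25.0%, 12.7% and 10.3%. In the Cdx2-Hnf4a library they were 9.04%, 13.9%, 13.5%, 10.2% and 8.37%. In Hnf4a knockout the share was 77.7% for HNF4A scores of 100 or more, 11.7% at 100 or more in every list, 13.6% with equal lengths and 14.2% at 52 or more in every list. At 52 or more in the knockout lists alone, a setting chosen after seeing the data together with the 20 score bins, it was 13.4%, and 14.5% in the Cdx2-Cdx1 library. Chosen after seeing the data as well, a split by score turned the kept difference between unmarked peaks without and with CDX2, −4.08 points over all scores, to 1.33 points under a score of 100 and 3.70 points at 100 or more. No paired analysis was possible because only the WT CDX2 group has more than 1 library.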

Other observations

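Unmarked peaks were spread over the genome. On the autosomes they made up between 21.7% (chromosome 19, 146 of 673) and 31.2% (chromosome 6, 314 of 1006) of the HNF4A peaks without CDX2, and on the X chromosome 26.6% (19.8 to 34.3). The only HNF4A peak without CDX2 listed on the Y chromosome was unmarked. Among all HNF4A peaks of the Cdx2 knockout list, 12.1% (11.4 to 12.7) had no nucleosome of the Cdx2 knockout list within 1 kb. The same share was 22.7% (22.1 to 23.2) for the WT list against WT nucleosomes, and 8.10% (7.57 to 8.66) for as many of its highest-scoring peaks as the knockout list holds.

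The 5 highest-scoring lost unmarked peaks included 4 with a WT CDX2 peak centred within 3 kb, which none of them overlapped, and this led to a further comparison chosen after these values were seen. In the highest quintile of HNF4A score, 8 of 32 unmarked peaks with a WT CDX2 peak within 5 kb were kept in Cdx2 knockout, or 25.0% (11.5 to 43.4). Of the 157 without one, 83 were kept, or 52.9% (44.8 to 60.9), a difference of −27.9 points (−41.9 to −9.07). The 4 lost peaks that led to the comparison are among the 32. Without the 5 highest-scoring lost peaks, 8 of 28 near CDX2 were kept, or 28.6%, and 83 of 156 farther away, or 53.2%, a difference of −24.6 points (−40.0 to −4.56). Median WT HNF4A scores of the groups with all peaks in were 225 and 261. Marked peaks of the same quintile were kept at 77.0% with and 78.0% without CDX2 within 5 kb, a difference of −1.06 points (−4.59 to 2.28). The difference of unmarked peaks minus that of marked peaks was −26.8 points (−41.2 to −7.68). With CDX2 within 10 kb the unmarked difference was −20.2 points (−34.0 to −4.63). In the fourth quintile it was −6.68 points (−15.6 to 5.18) within 5 kb, and in the lower 3 quintiles 0.355 points (−1.16 to 2.49). Over the 10 combinations of score class and distance that were computed, the unmarked differences lay between −27.9 and 0.808 points, and no adjustment was made.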
